A study of Arabidopsis thaliana with 24 samples.

Results

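The Aux/IAA and GH3 genes are 2 families known for their fast induction by auxin. Their members were taken by locus from the table of normalized counts, as IAA1 to IAA20, IAA26 to IAA34, GH3.1 to GH3.6, GH3.9, GH3.10 and GH3.17. They are 38 of the 33681 genes in the table, 29 Aux/IAA and 9 GH3 genes. RNA was sequenced from 14-day-old whole seedlings of Arabidopsis thaliana, accession Col-0, grown in short days, in 8 genotypes with 3 libraries each. The genotypes were WT, the T-DNA insertion mutants bcl7a, bcl7b, brm-3 and brm-1, the bcl7a bcl7b double mutant, and the bcl7a bcl7b brm-3 and bcl7a bcl7b brm-1 triple mutants. BRM is the ATPase of a SWI/SNF chromatin remodeling complex, and BCL7A and BCL7B are accessory subunits of that complex. The authors also place BCL7A and BCL7B in the SWI/SNF complexes of the ATPases SYD and MINU1 or MINU2, so that their loss is not confined to the BRM complex. The brm-1 allele is a null and brm-3 a hypomorph, and each mutant allele is represented by a single insertion line. The comparisons ask how the 2 families respond to loss of the BCL7 subunits, of BRM, and of both.

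As background, auxin is sensed by the TIR1/AFB F-box proteins, which bind Aux/IAA proteins through a short degron and send them to the proteasome. Aux/IAA proteins repress the auxin response factors (ARFs), so their loss releases transcription of auxin-induced genes, among which are the Aux/IAA genes themselves and many GH3 genes. GH3 enzymes join auxin or other acidic hormones to amino acids, which takes active auxin out of the pool. Both families therefore sit in negative feedback loops, and their transcripts are common readouts of auxin response in seedlings.

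The regions upstream of 6 members are shown because the comparisons below return to them. They include 4 of the 5 GH3 genes whose response to bcl7a bcl7b differed between brm backgrounds, GH3.17 being left out. The others are IAA19 and IAA28, which changed in the same 5 mutants in opposite directions. Each window holds the 300 bases before the annotated gene start, written 5′ to 3′ on the strand of the gene. The sequences are those of RefSeq assembly TAIR10.1, whose nuclear chromosomes have the sequence of TAIR10. Capitals mark TGTCTC, known as the auxin response element, and CACGTG, the G-box. GH3.3 (chr2:9866563-9866862, minus strand), GH3.2 (chr4:17579318-17579617, plus strand), GH3.5 (chr4:13653279-13653578, plus strand) and GH3.6 (chr5:22133689-22133988, minus strand) encode GH3 enzymes that had lower transcript levels in several mutants. IAA19 (chr3:5263701-5264000, plus strand) also had lower levels, and IAA28 (chr5:9032904-9033203, plus strand) higher ones.
GH3.3: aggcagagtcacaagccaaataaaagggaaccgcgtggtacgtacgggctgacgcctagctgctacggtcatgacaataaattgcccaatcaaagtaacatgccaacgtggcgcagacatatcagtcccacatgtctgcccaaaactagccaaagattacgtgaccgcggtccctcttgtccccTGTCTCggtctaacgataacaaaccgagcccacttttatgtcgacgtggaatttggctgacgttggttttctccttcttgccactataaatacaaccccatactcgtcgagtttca
GH3.2: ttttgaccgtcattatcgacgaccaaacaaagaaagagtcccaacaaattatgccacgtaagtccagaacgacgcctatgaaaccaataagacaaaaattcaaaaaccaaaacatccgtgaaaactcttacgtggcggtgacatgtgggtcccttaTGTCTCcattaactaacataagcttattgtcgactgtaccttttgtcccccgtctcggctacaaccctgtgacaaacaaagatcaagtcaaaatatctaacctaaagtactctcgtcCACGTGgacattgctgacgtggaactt
GH3.5: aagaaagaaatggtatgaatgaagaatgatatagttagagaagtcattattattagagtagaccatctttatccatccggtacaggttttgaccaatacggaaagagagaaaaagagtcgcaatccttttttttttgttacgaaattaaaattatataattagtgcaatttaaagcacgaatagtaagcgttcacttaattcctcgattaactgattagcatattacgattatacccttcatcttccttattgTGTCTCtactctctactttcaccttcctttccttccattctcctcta
GH3.6: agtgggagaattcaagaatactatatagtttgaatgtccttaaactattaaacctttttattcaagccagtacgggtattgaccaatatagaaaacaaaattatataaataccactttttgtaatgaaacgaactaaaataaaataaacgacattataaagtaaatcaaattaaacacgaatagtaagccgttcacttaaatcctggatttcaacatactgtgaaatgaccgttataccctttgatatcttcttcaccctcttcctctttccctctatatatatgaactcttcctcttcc
IAA19: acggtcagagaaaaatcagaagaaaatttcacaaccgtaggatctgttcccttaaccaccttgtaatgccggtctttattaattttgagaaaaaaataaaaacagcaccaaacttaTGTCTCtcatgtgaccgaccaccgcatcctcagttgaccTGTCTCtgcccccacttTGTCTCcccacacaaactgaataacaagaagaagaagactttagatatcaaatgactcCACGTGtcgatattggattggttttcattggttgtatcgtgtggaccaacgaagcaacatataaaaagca
IAA28: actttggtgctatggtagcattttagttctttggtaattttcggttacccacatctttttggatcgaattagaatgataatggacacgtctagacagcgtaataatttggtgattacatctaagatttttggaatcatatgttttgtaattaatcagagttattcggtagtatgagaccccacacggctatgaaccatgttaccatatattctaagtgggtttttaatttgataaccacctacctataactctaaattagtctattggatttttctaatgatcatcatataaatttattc

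The windows of GH3.3 and GH3.5 each held a single TGTCTC, whose first base lay 116 and 47 bases before the gene start. The GH3.2 window held TGTCTC at 144 bases and CACGTG at 27 bases before the start. In IAA19, TGTCTC was found at 184, 145 and 128 bases and CACGTG at 70 bases. Neither motif was found in the windows of GH3.6 and IAA28. Searched on both strands, TGTCTC was present in 14 of 38 members (36.8%) and in 13% of the windows of 27443 protein-coding genes. TGTCGG, a high-affinity ARF site, was present in 6 of 38 members (15.8%) and 4.91% of all windows. CACGTG was present in 5 of 38 members (13.2%) and 7.09% of all windows. TGTCTC and TGTCGG differ in their last letters and CACGTG shares no core with them, and a match is a description of the letters, not evidence of binding.

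Library sums of normalized counts, in mega (M), ranged from 29.9 M to 40.9 M over the 9 libraries with WT, bcl7a or bcl7b plants, and from 16.6 M to 22.1 M over the 15 with any other genotype. The 10 highest genes held 26.75% to 33.61% of the sum in those 9 libraries and 7.87% to 13.7% in the 15. This split cannot be told apart from the genotype in a comparison of those 5 genotypes with WT, whereas the comparisons among the 5 lie within the lower set. Replicates 1 and 3 of bcl7a bcl7b differed by less than the sampling noise (0.141 on a scale where noise alone gives 1, against 8.50 to 119 for 23 other replicate pairs). They were averaged and counted as 1 sample, so that n = 2 for bcl7a bcl7b and n = 3 elsewhere. Genes at 0 numbered 16191 in WT replicate 1, against 13250 and 13368 in WT replicates 2 and 3. BCL7B was at 0 in all libraries of bcl7b, bcl7a bcl7b and bcl7a bcl7b brm-1, and at 0, 0 and 23.97 in bcl7a bcl7b brm-3, against 382, 383 and 479 in WT. BRM was at 35.2, 44.8 and 31.2 in brm-1 and 17.9, 26.6 and 43.6 in bcl7a bcl7b brm-1, against 111, 179.9 and 349.5 in WT. In brm-3 and bcl7a bcl7b brm-3, BRM was at 166, 173 and 135 and 117, 115 and 163, within the WT range, so that its level is no check of the brm-3 label. BCL7A was low in WT itself, at 0, 18.1 and 30.1, so that it is a weak check of the bcl7a label. The seedling label was checked with marker lists, whose values are given below beside the results they move with.

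Of the 38 members, 35 were tested (27 Aux/IAA and 8 GH3), those that reached 10 normalized counts in 3 or more libraries. IAA20 reached 10 in 1 library (highest value 13.7), IAA33 in none (highest value 7.08), and GH3.4 was at 0 in all 24 libraries. IAA15 passed the filter only through the triple mutants, so that its calls, all of them higher in bcl7a bcl7b brm-1, support nothing. It is still counted in the totals given below, among them the 28 changed members. A gene counts as changed when its limma adjusted p, over the 21596 genes tested, lies below 0.05 and its log2 fold change beyond 0.6 in either direction. Against WT, 28 of the 35 changed in at least 1 of the 7 mutants and 7 in none, and 0 members changed in opposite directions in different mutants. These 7 comparisons share the WT libraries.

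The single mutants had no changed member. In bcl7a, 0 of 35 passed the thresholds (of all genes, 0.301% were higher and 0.0509% lower, 0.352% in all), and 2 members, IAA28 and GH3.2, had an unadjusted p under 0.05 (limma). In bcl7b, 0 of 35 passed (of all genes, 1.5% were higher and 0.574% lower, 2.08% in all), with 6 at an unadjusted p under 0.05 (limma). The double mutant had 12 changed members, 2 higher and 10 lower (of all genes, 11.9% were higher and 10.2% lower, 22.1% in all). In brm-3, 5 were higher and 8 lower (of all genes, 23.5% were higher and 16.5% lower, 40% in all), and in brm-1, 5 were higher and 8 lower (of all genes, 28.9% were higher and 19.2% lower, 48.1% in all). In bcl7a bcl7b brm-3, 8 were higher and 11 lower (of all genes, 30.8% were higher and 22.8% lower, 53.5% in all), and in bcl7a bcl7b brm-1, 8 (IAA15 among them) were higher and 13 lower (of all genes, 26.9% were higher and 18.3% lower, 45.2% in all). In brm-1, brm-3 and bcl7a bcl7b brm-3 the share of changed members was therefore near or under that of all genes.

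The direction of these counts depends on the scale. With libraries rescaled to the same total, the all-gene median in bcl7a bcl7b moved from 0.19 to 1.11 and in brm-1 from 0.36 to 1.15. The changed members were then 13 higher and 6 lower in bcl7a bcl7b, 14 and 5 in brm-3, 15 and 6 in brm-1, 19 and 5 in bcl7a bcl7b brm-3, and 13 and 9 in bcl7a bcl7b brm-1. In that order, 68.4%, 73.7%, 71.4%, 79.2% and 59.1% of the changed members were higher. Of all genes called with the same total, 96.8%, 92.5%, 87.9%, 85.9% and 88.7% were higher. Rescaling without the 100 highest genes gave 4 and 8, 7 and 8, 11 and 8, 12 and 10, and 9 and 12 in the same order. Of all genes called there, 80%, 70.7%, 67.7%, 66.6% and 67.6% were higher. Of the members lower on the deposited scale, 6 of 10, 5 of 8, 6 of 8, 5 of 11 and 9 of 13 were still called lower with the same total. Every member called lower on the deposited scale stayed below the median of all genes under these rescalings and under quantile normalization. Rescaling moves all genes of a library nearly alike, and quantile normalization keeps their order within a library. That outcome was therefore largely fixed in advance and is no support for the calls.

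**Figure D1:**
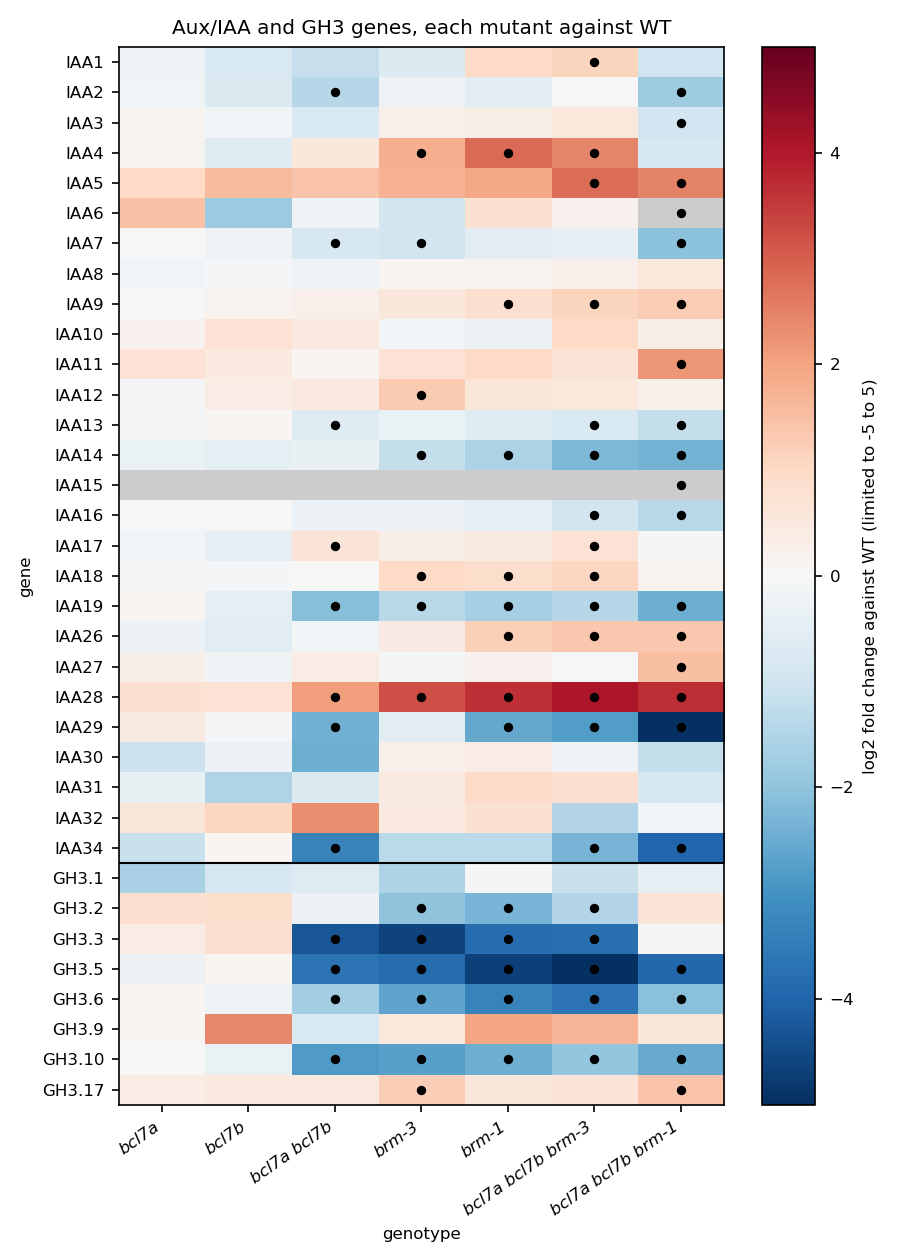
Log2 fold change of each tested Aux/IAA (above the line) and GH3 gene (below it) in each mutant against WT, with colours limited to -5 and 5. Dots mark genes past the thresholds (adjusted p below 0.05 and log2 fold change beyond 0.6 either way), and grey cells a gene listed at 0 in every library of one of the groups. Cells with dots for GH3.3, GH3.5, GH3.6 and GH3.10 are blue in bcl7a bcl7b, brm-3, brm-1 and bcl7a bcl7b brm-3. Those for GH3.5, GH3.6 and GH3.10 are also blue in bcl7a bcl7b brm-1, and those for IAA28 are red in all 5 multiple and brm mutants.

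Among GH3 genes, the auxin-conjugating enzymes GH3.3, GH3.5 and GH3.6 and the related gene GH3.10 fell in bcl7a bcl7b, brm-3 and brm-1. Of the 8 tested, 4 were lower in bcl7a bcl7b, 5 in brm-3, 5 in brm-1, 5 in bcl7a bcl7b brm-3 and 3 in bcl7a bcl7b brm-1. In that order, 50%, 75%, 62.5%, 62.5% and 50% of the 8 were called in either direction. The shares of all genes were 22.1%, 40%, 48.1%, 53.5% and 45.2%. GH3.17 was the only GH3 gene called higher, in brm-3 and in bcl7a bcl7b brm-1. The median log2 fold change of the tested GH3 genes was -1.25 in bcl7a bcl7b, -2.33 in brm-3, -2.38 in brm-1, -1.70 in bcl7a bcl7b brm-3 and -0.27 in bcl7a bcl7b brm-1, where the medians of all genes lay between 0.19 and 0.36. The GH3 calls against WT kept their direction and their call under the rescaling to the same total, except those of GH3.2 and GH3.10 in bcl7a bcl7b brm-3.

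GH3.3 (AT2G23170) encodes an acyl amido synthetase that joins auxin to aspartate and other amino acids. Its normalized counts were 465, 689 and 553 in WT, 878, 446 and 987 in bcl7a and 1093, 892 and 1028 in bcl7b. They were 9.78, 76.95 and 10.09 in bcl7a bcl7b, 28.5, 40.7 and 8.44 in brm-3, 19.4, 31.4 and 94.7 in brm-1 and 17.4, 39.1 and 91.2 in bcl7a bcl7b brm-3. All 12 of these libraries lay below every WT library, and replicate 2 of bcl7a bcl7b stood above its other libraries. In bcl7a bcl7b brm-1 the values were 594, 515 and 463, within or just below the WT range. Folds against WT, computed on the log2(value + 1) scale, were 19.3-fold lower in bcl7a bcl7b (log2 -4.27 ± 0.73 SE, limma adjusted p = 2.2e-04), 24.9-fold in brm-3, 14.1-fold in brm-1 and 13.8-fold in bcl7a bcl7b brm-3. The difference from WT in bcl7a bcl7b brm-1 was -0.11 on the log2 scale with a 95% interval of -1.46 to 1.24. In a model of bcl7a bcl7b and WT alone, the call for the double mutant was lost (adjusted p = 0.078, limma).

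GH3.5 (WES1, AT4G27260), which conjugates auxin and salicylic acid, held 3363, 2903 and 7235 normalized counts in WT, 4016, 2186 and 4302 in bcl7a and 4698, 3846 and 4818 in bcl7b. The values were 394, 259 and 395 in bcl7a bcl7b, 235, 417 and 238 in brm-3 and 134, 132 and 233 in brm-1. They were 75.9, 101 and 105 in bcl7a bcl7b brm-3 and 257, 315 and 250.4 in bcl7a bcl7b brm-1. Every library of these 5 genotypes lay below every WT library. The fall was 12.9-fold in bcl7a bcl7b (log2 -3.69 ± 0.35 SE, limma adjusted p = 3.1e-07), 25.6-fold in brm-1 and 43.9-fold in bcl7a bcl7b brm-3, the largest of any member there.

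GH3.6 (DFL1, AT5G54510), whose overexpression gives a dwarf in light, was at 1517, 1849 and 2162 in WT, 2261, 1444 and 2208 in bcl7a and 1610, 1405 and 1525 in bcl7b. It was at 559.7, 543 and 558 in bcl7a bcl7b, 308, 334 and 238 in brm-3 and 152, 149 and 254 in brm-1. In the triple mutants it was at 108, 223 and 109.9 with brm-3 and 405, 426 and 442 with brm-1. No library of the 5 genotypes overlapped WT, and the fall ranged from 3.31-fold in bcl7a bcl7b (log2 -1.73 ± 0.28 SE) to 13.1-fold in bcl7a bcl7b brm-3 (log2 -3.71 ± 0.25 SE).

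GH3.10 (DFL2, AT4G03400), linked to hypocotyl growth in red light, held 326, 596 and 589 in WT, 450.2, 564 and 478 in bcl7a and 371, 423 and 360.4 in bcl7b. Its values were 32.4, 139 and 33.4 in bcl7a bcl7b, 78.95, 95.8 and 53.8 in brm-3, 100.2, 95.1 and 70.7 in brm-1, 98.6, 136 and 146 in bcl7a bcl7b brm-3 and 141, 79.6 and 51.8 in bcl7a bcl7b brm-1. The fall against WT was 7.06-fold in bcl7a bcl7b (log2 -2.82 ± 0.46 SE, not called in the model of these 2 groups alone) and between 3.85-fold and 6.48-fold in the other 4. GH3.10 shares 432 bases with a gene on the opposite strand, AT4G03410, and the use of strand in the quantification is not given in the sources used here.

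GH3.2 (YDK1, AT4G37390), another auxin-conjugating enzyme, was at 92.2, 125 and 91.7 in WT, 171, 168 and 218 in bcl7a, 199, 170.3 and 198 in bcl7b and 58.6, 119.9 and 57.6 in bcl7a bcl7b. It was at 18.7, 25.7 and 31.2 in brm-3, 16.7, 17.4 and 26.6 in brm-1 and 29.2, 49.7 and 32.98 in bcl7a bcl7b brm-3, all below WT. The values in bcl7a bcl7b brm-1, 145, 119 and 232, overlapped WT. GH3.2 fell 4.01-fold in brm-3 and 4.94-fold in brm-1 (log2 -2.31 ± 0.38 SE, limma adjusted p = 3.0e-05), and passed no threshold in bcl7a bcl7b (log2 -0.28, 95% interval -1.16 to 0.60).

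GH3.17 (VAS2, AT1G28130), which joins auxin to glutamate, moved the other way. It held 205, 219.5 and 381 in WT, 246, 517 and 285 in bcl7a, 369, 327 and 384 in bcl7b and 352, 378 and 344 in bcl7a bcl7b. It held 890, 541 and 471 in brm-3, 406, 403 and 348 in brm-1, 287, 463 and 509 in bcl7a bcl7b brm-3 and 800, 665 and 623 in bcl7a bcl7b brm-1. The rise was 2.36-fold in brm-3 and 2.68-fold in bcl7a bcl7b brm-1, with no overlap with WT in either, whereas brm-1 gave log2 0.58 without a call.

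The low GH3 genes gave no call. GH3.1, an auxin-induced member, was at 25.3, 6.24 and 1.48 in WT and between 0 and 13.4 in the mutants. GH3.9, for which mutants have been linked to primary root growth, was at 0, 18.7 and 7.42 in WT, 0, 9.20 and 18.3 in bcl7a and 39.8, 33.1 and 16.2 in bcl7b. GH3.9 was at 9.09, 0 and 9.38 in bcl7a bcl7b, 10.7, 6.21 and 5.06 in brm-3, 13.2, 24.9 and 26.02 in brm-1, 9.52, 33.7 and 14.3 in bcl7a bcl7b brm-3 and 23.3, 23.9 and 0 in bcl7a bcl7b brm-1. At values this low, libraries of 1 genotype ranged from 0 to above 20, so that a difference was not detectable.

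**Figure D2:**
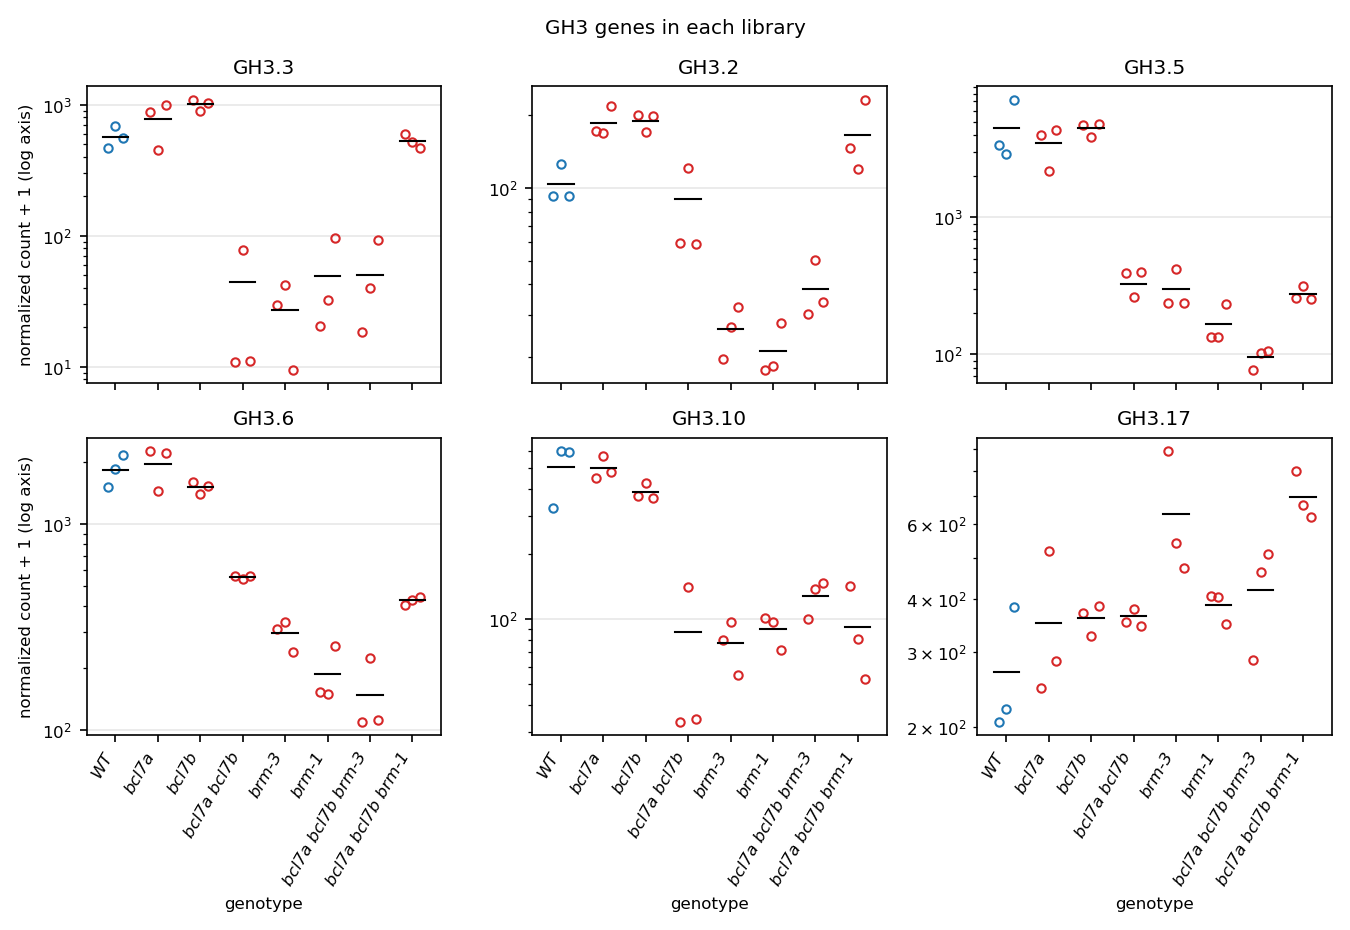
Normalized count + 1 (log axis) of 6 GH3 genes in each library (circles, 3 per genotype, WT in blue), with the group mean as a bar (replicates 1 and 3 of bcl7a bcl7b averaged first). GH3.3 and GH3.2 sit near or above the WT level in bcl7a bcl7b brm-1 and far below it in brm-1, while GH3.5, GH3.6 and GH3.10 stay below WT in all 5 genotypes to the right of bcl7b.

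Among Aux/IAA genes, IAA28 rose in all 5 of bcl7a bcl7b, brm-3, brm-1 and the triple mutants, and IAA19 fell in the same 5. The IAA19 calls in brm-3, brm-1 and bcl7a bcl7b brm-3 were lost with the same-total rescaling, and that in brm-3 also without brm-3 replicate 3 and in a model of brm-3 and WT alone. Of the 27 tested, 2 were higher and 6 lower in bcl7a bcl7b, 4 and 3 in brm-3, 5 and 3 in brm-1, 8 and 6 in bcl7a bcl7b brm-3, and 7 (IAA15 among them) and 10 in bcl7a bcl7b brm-1. In that order, 29.6%, 25.9%, 29.6%, 51.9% and 63% of the 27 were called in either direction. The shares of all genes were 22.1%, 40%, 48.1%, 53.5% and 45.2%. In brm-3, brm-1 and bcl7a bcl7b brm-3 the Aux/IAA share was thus near or under that of all genes. The median log2 fold change of the 27 was -0.20, 0.27, 0.44, 0.51 and -0.81 in the same order, beside medians of all genes of 0.19, 0.27, 0.36, 0.30 and 0.29.

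IAA28 (AT5G25890), a repressor whose stabilized form blocks lateral root formation, held 118, 83.98 and 86.02 in WT, 123, 156 and 224 in bcl7a and 138, 196 and 145 in bcl7b. It held 353, 462 and 357 in bcl7a bcl7b, 838, 1051 and 783 in brm-3 and 1110, 1350 and 1203 in brm-1. In the triple mutants it held 1670, 1243 and 1831 with brm-3 and 1182, 1107 and 1502 with brm-1. The groups stood in steps without overlap from WT to the double mutant to the brm genotypes, with all bcl7a and bcl7b libraries between WT and the double mutant. The rise was 4.23-fold in bcl7a bcl7b (log2 2.08 ± 0.25 SE, limma adjusted p = 5.6e-06), 9.22-fold in brm-3, 12.7-fold in brm-1 and 16.3-fold in bcl7a bcl7b brm-3. In bcl7a and bcl7b the values were log2 0.77 and 0.73, with adjusted p of 0.16 and 0.096 (limma).

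IAA4 (AT5G43700), an early auxin-induced repressor, was at 318, 962 and 494 in WT, 584, 813 and 413 in bcl7a, 424, 278 and 338 in bcl7b and 513, 1260 and 492 in bcl7a bcl7b. It was at 1248, 3487 and 1479 in brm-3, 3666, 4326 and 3455 in brm-1 and 2683, 3133 and 2963 in bcl7a bcl7b brm-3, all above WT. In bcl7a bcl7b brm-1 it was at 396, 185 and 378, overlapping WT. IAA4 rose 3.49-fold in brm-3 and 7.12-fold in brm-1 (log2 2.83 ± 0.40 SE, limma adjusted p = 4.1e-06).

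Smaller rises in brm-1 were those of IAA9, IAA18 and IAA26. IAA9, a repressor linked to leaf development and fruit set in tomato, was at 1692, 1960 and 1920 in WT, 1842, 2008 and 1845 in bcl7a, 1841, 2086 and 2296 in bcl7b and 2015, 2438 and 2012 in bcl7a bcl7b. It was at 2884, 2970 and 2396 in brm-3, 3265, 3462 and 3257 in brm-1, 3936, 4201 and 3826 in bcl7a bcl7b brm-3 and 4654, 4095 and 4733 in bcl7a bcl7b brm-1. The rise of IAA9 was 1.79-fold in brm-1, 2.15-fold in bcl7a bcl7b brm-3 and 2.42-fold in bcl7a bcl7b brm-1, with replicates close together.

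IAA18 (CRANE), which has a role in lateral root initiation and embryo patterning, held 436, 514 and 493 in WT, 325, 687 and 564 in bcl7a, 598, 351 and 473 in bcl7b and 495, 464 and 505 in bcl7a bcl7b. It held 1021, 1184 and 749 in brm-3, 863, 861 and 921 in brm-1, 1044, 1072 and 959.6 in bcl7a bcl7b brm-3 and 586, 553 and 512 in bcl7a bcl7b brm-1. Its rise was 2.01-fold in brm-3 and 1.83-fold in brm-1. IAA26 (PAP1) held 332, 313 and 369 in WT, 295, 267 and 273 in bcl7a, 275, 264 and 180 in bcl7b and 214, 442 and 215 in bcl7a bcl7b. It held 423, 518 and 415 in brm-3, 777, 803 and 743 in brm-1, 802, 949 and 803 in bcl7a bcl7b brm-3 and 1038, 869.6 and 731 in bcl7a bcl7b brm-1. IAA26 rose 2.29-fold in brm-1 and 2.58-fold in bcl7a bcl7b brm-1, and gave no call in brm-3.

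IAA17 (AXR3), a repressor known from dominant mutants with strong growth defects, rose 1.57-fold in bcl7a bcl7b, the smaller of the 2 rises called there. Its values were 951, 921 and 774 in WT, 709, 1007 and 704 in bcl7a, 713, 688 and 596 in bcl7b, 1395, 1365 and 1403 in bcl7a bcl7b and 933, 1411 and 1014 in brm-3. They were 1357, 1225 and 1014 in brm-1, 1547, 1210 and 1566 in bcl7a bcl7b brm-3 and 656, 1032 and 893 in bcl7a bcl7b brm-1. The call in bcl7a bcl7b was lost without WT replicate 3, without bcl7a bcl7b replicate 2 and in a model of the 2 groups alone.

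IAA19 (MSG2, AT3G15540), a repressor in hypocotyl growth and tropisms, held 309.5, 411 and 325 in WT, 354, 480.3 and 288 in bcl7a and 226, 247 and 266 in bcl7b. It held 104, 59.99 and 102 in bcl7a bcl7b, 126, 264 and 68.5 in brm-3 and 77.03, 108 and 160.1 in brm-1. In the triple mutants it held 145, 104 and 142 with brm-3 and 76.5, 36.5 and 91.5 with brm-1. All libraries of these 5 genotypes lay below WT, as did those of bcl7b, which had no call. Replicate 2 of brm-3 stood above the other brm-3 libraries. The fall was 4.36-fold in bcl7a bcl7b (log2 -2.12 ± 0.45 SE, limma adjusted p = 0.0018), 2.61-fold in brm-3, 3.12-fold in brm-1 and 5.37-fold in bcl7a bcl7b brm-1.

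IAA29 (AT4G32280), an auxin gene that PIF transcription factors activate in shade and warmth, was at 242, 628 and 311 in WT, 506, 538 and 456 in bcl7a and 436, 332 and 279 in bcl7b. It was at 47.1, 102 and 45.1 in bcl7a bcl7b, 189, 528 and 161 in brm-3, 30.4, 67.5 and 108 in brm-1, 18.7, 114 and 60.1 in bcl7a bcl7b brm-3 and 8.19, 7.91 and 10.3 in bcl7a bcl7b brm-1. The brm-3 libraries overlapped WT, with replicate 2 the highest, and the other 4 genotypes did not. The fall was 5.22-fold in bcl7a bcl7b, 5.88-fold in brm-1 and 37.2-fold in bcl7a bcl7b brm-1 (log2 -5.22 ± 0.56 SE, limma adjusted p = 8.7e-08), the largest fall of any member in that triple mutant. The call in bcl7a bcl7b was lost with the same-total rescaling and in the model of the 2 groups alone. PIF4 and PIF5, which encode such factors, were at 1386, 1638 and 2656 and at 1412, 1081 and 1643 in WT, and at 91.6, 101 and 143 and at 254, 222 and 241 in brm-1. In brm-3, where the IAA29 libraries overlapped WT, they were at 329, 496 and 298 and at 396, 459 and 352. Of 4 PIF genes, 0 were higher and 2 lower in brm-1 (50%, beside 48.1% of all genes), and PIF3 and PIF7 were not called there. The part of PIF4 and PIF5 in the values of IAA29 and IAA19 was not tested.

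IAA7 (AXR2) and IAA14 (SLR), repressors known from dominant mutants with defects in gravitropism and lateral roots, fell in overlapping sets of genotypes. IAA7 was at 3913, 4111 and 4447 in WT, 3807, 4735 and 4128 in bcl7a, 3632, 3369 and 3523 in bcl7b and 2096, 2680 and 2108 in bcl7a bcl7b. It was at 2343, 2803 and 1646 in brm-3, 2418, 3281 and 2978 in brm-1, 2746, 3768 and 2888 in bcl7a bcl7b brm-3 and 1109, 726 and 1203 in bcl7a bcl7b brm-1. IAA7 fell 4.19-fold in bcl7a bcl7b brm-1 (log2 -2.07 ± 0.20 SE), and 1.75-fold in bcl7a bcl7b, where the sign turned with the same-total rescaling (log2 0.16). IAA7 was also called lower in brm-3, a call lost with the same-total rescaling and at stricter thresholds. IAA14 held 274, 268 and 244 in WT, 258, 169 and 205 in bcl7a, 164, 144 and 291 in bcl7b and 232, 173 and 239 in bcl7a bcl7b. It held 117, 122 and 105 in brm-3, 89.95, 125 and 57.1 in brm-1, 36.2, 72.3 and 62.8 in bcl7a bcl7b brm-3 and 68.4, 33.4 and 55.4 in bcl7a bcl7b brm-1. IAA14 fell 2.28-fold in brm-3, 3.01-fold in brm-1 and 5.13-fold in bcl7a bcl7b brm-1, without a call in the double mutant. Its calls in brm-3 and brm-1 were lost with the same-total rescaling.

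IAA2, IAA13 and IAA34 were the other Aux/IAA genes lower in bcl7a bcl7b. IAA2, an early auxin-induced repressor, was at 2924, 2781 and 1717 in WT, 2487, 2440 and 1721 in bcl7a, 2291, 1138 and 1223 in bcl7b and 799, 1015 and 789 in bcl7a bcl7b. It was at 1661, 3181 and 1589 in brm-3, 1341, 1639 and 2084 in brm-1, 1797, 2508 and 2944 in bcl7a bcl7b brm-3 and 822, 503 and 863 in bcl7a bcl7b brm-1. Its fall was 2.68-fold in bcl7a bcl7b and 3.39-fold in bcl7a bcl7b brm-1, and the other mutants gave no call. The call in bcl7a bcl7b was lost with the same-total rescaling (log2 -0.46) and in a model of the 2 groups alone.

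IAA13, a close relative of the embryo patterning repressor IAA12, held 767, 572 and 877 in WT, 693, 569.6 and 767 in bcl7a, 843, 758 and 742 in bcl7b and 456, 476 and 456 in bcl7a bcl7b. It held 584, 569 and 592 in brm-3, 493, 464 and 492 in brm-1, 322, 512 and 481 in bcl7a bcl7b brm-3 and 326, 306 and 333 in bcl7a bcl7b brm-1. Its fall of 1.56-fold in bcl7a bcl7b turned to a log2 value of 0.32 with the same-total rescaling. The call was also lost under 7 other alternatives, among them quantile normalization and leaving out WT replicate 1 or 3. IAA13 shares 1176 bases with a gene on the opposite strand, AT2G33300. IAA34, which lacks the canonical degron, was at 77.3, 19.8 and 41.9 in WT, 16.3, 31.5 and 11.3 in bcl7a, 55.4, 34.5 and 40.1 in bcl7b and 8.42, 0.739 and 8.69 in bcl7a bcl7b. IAA34 was at 18.2, 15.2 and 12.7 in brm-3, 11.3, 26.1 and 11.2 in brm-1, 9.58, 15.8 and 2.23 in bcl7a bcl7b brm-3 and 5.36, 0 and 1.84 in bcl7a bcl7b brm-1. It fell 10.11-fold in bcl7a bcl7b and 15.7-fold in bcl7a bcl7b brm-1, in values near the filter. The call in bcl7a bcl7b was lost without bcl7a bcl7b replicate 2, at stricter thresholds and in a model of the 2 groups alone.

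The remaining changes against WT were in fewer genotypes. IAA12 (BDL), the embryo patterning repressor, rose 2.46-fold in brm-3, and IAA5 rose 6.96-fold and 5.55-fold in the brm-3 and brm-1 triple mutants from values between 0 and 16.03 in WT. Both IAA5 calls were lost without WT replicate 1, where IAA5 was at 0, and in models of the compared groups alone. That in bcl7a bcl7b brm-1 was lost under 5 of 17 alternatives. IAA11 and IAA27 rose 4.61-fold and 2.8-fold in bcl7a bcl7b brm-1, where IAA3 (SHY2) fell 1.94-fold. IAA1 (AXR5) rose 2.17-fold in bcl7a bcl7b brm-3, a call lost under 9 of the 18 alternatives. IAA16 fell 1.89-fold and 2.63-fold in the 2 triple mutants. IAA6 was at 0 in all libraries of bcl7a bcl7b brm-1 and at 0, 27.4 and 19.04 in WT, and IAA15 was at 0 in all libraries of WT and at 15.7, 9.34 and 14.4 in bcl7a bcl7b brm-1. The fall of IAA6 was called, a call lost under 11 of 17 alternatives, and no fold is given against a group at 0. IAA8, IAA10, IAA30, IAA31, IAA32, GH3.1 and GH3.9 changed in none of the 7 mutants.

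**Figure D3:**
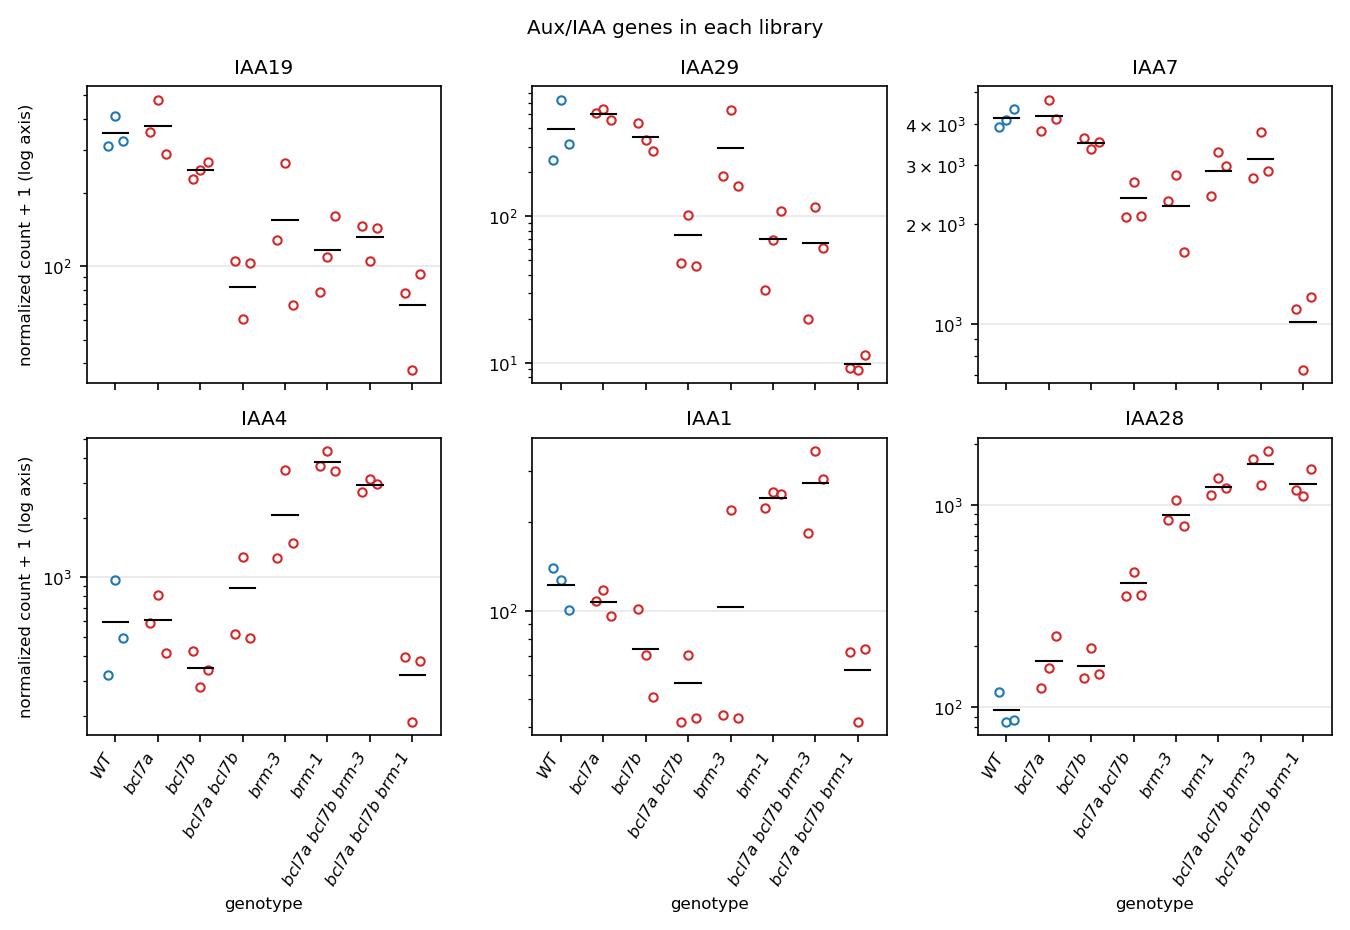
Normalized count + 1 (log axis) of 6 Aux/IAA genes in each library (circles, 3 per genotype, WT in blue), with the group mean as a bar (replicates 1 and 3 of bcl7a bcl7b averaged first). IAA28 lies above WT in every library of every mutant, and IAA19 below it in bcl7b and from bcl7a bcl7b on. Every library of brm-1 and bcl7a bcl7b brm-3 lies above WT for IAA4 and IAA1, which are within or below the WT range in bcl7a bcl7b brm-1.

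Whether the double mutant equals the sum of the single mutants was tested as a departure from additivity, and 5 of the 8 tested GH3 genes departed downward. Of 35 members, 6 departed, 1 upward and 5 downward (of all genes, 3.03% were higher and 2.98% lower, 6.01% in all). The 5 were GH3.3 (log2 -5.47 ± 0.98 SE, limma adjusted p = 0.0017), GH3.5 (-3.49 ± 0.48), GH3.10 (-2.51 ± 0.61), GH3.2 (-2.02 ± 0.57) and GH3.6 (-1.54 ± 0.38). IAA17 was the member above the sum (1.20 ± 0.29). For GH3.2, every bcl7a and bcl7b library lay above WT (168 to 218 and 170 to 199, against 91.7 to 125). GH3.2 had no call in bcl7a bcl7b against WT, so that its departure is not a called fall below WT. The bcl7b libraries of GH3.3 also lay above WT (892 to 1093, against 465 to 689). Without bcl7a bcl7b replicate 2 the count was 4. The double mutant has lower library sums than the other groups of this contrast, a split that cannot be told apart from the genotype. With the same-total rescaling 4 members were higher and 2 lower (of all genes called, 93.35% were higher). The calls of GH3.2, GH3.6 and GH3.10 were then lost, while those of GH3.3 and GH3.5 were kept under all 24 alternatives. The call of GH3.2 was lost under 10 of them.

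Added to the null allele brm-1, bcl7a bcl7b raised 4 of 8 tested GH3 genes and lowered 11 of 27 tested Aux/IAA genes. In bcl7a bcl7b brm-1 against brm-1, 7 members were higher and 11 lower (of all genes, 14.2% were higher and 15.3% lower, 29.5% in all), of which GH3 genes gave 4 higher and 0 lower, and Aux/IAA genes 3 and 11. The 4 were GH3.3 (13.1-fold, log2 3.71 ± 0.65 SE, limma adjusted p = 1.3e-04), GH3.2 (7.68-fold), GH3.6 (2.36-fold) and GH3.17 (1.8-fold), and GH3.5 gave log2 0.76 without a call. Aux/IAA falls included IAA4 (12.5-fold), IAA29 (6.32-fold), IAA1 (4.01-fold), IAA7 (2.9-fold), IAA3 (2.4-fold) and IAA2 (2.34-fold). IAA27 rose 2.44-fold. Without bcl7a bcl7b brm-1 replicate 2 or brm-1 replicate 1 the count was 12. The sum of 3 seed markers was 471 to 11360 in bcl7a bcl7b brm-1, highest in replicate 1, against 0 to 1.83 in brm-1. Replicates 2 and 3 summed to 765.5 and 471, so that leaving out replicate 1 does not remove the seed markers. Without replicate 1, 14 members were changed, 4 higher and 10 lower, with log2 values of 3.62 for GH3.3 and 1.27 for GH3.6. GH3.17 then lost its call (adjusted p = 0.098, limma). Both groups lie in the set of lower library sums.

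Added to the hypomorph brm-3, the same mutations had a different set of effects. In bcl7a bcl7b brm-3 against brm-3, 3 members were higher and 6 lower (of all genes, 9.08% were higher and 12.1% lower, 21.2% in all), among them GH3.5 (3.04-fold lower, log2 -1.60 ± 0.32 SE) and GH3.6 (2.09-fold lower). IAA29 fell 4.89-fold and IAA26 and IAA28 rose 1.89-fold and 1.77-fold. IAA1 rose 3.52-fold, with libraries that overlapped (184, 349 and 281 in the triple mutant, 43.01, 220.3 and 41.97 in brm-3). Without bcl7a bcl7b brm-3 replicate 3 the count fell to 6, and with the same-total rescaling 4 members were higher and 4 lower.

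The difference between these 2 effects was itself tested, in a contrast added after the values had been seen. It passed the thresholds in 13 members, 6 higher and 7 lower with brm-1 (of all genes, 14.8% were higher and 13.1% lower, 28% in all). GH3.5 and GH3.6 fell with bcl7a bcl7b in brm-3 and gave log2 0.76 and 1.24 in brm-1, with differences of 2.37 ± 0.45 and 2.30 ± 0.36 (log2, SE, limma adjusted p = 3.9e-04 and 5.2e-05). GH3.3 and GH3.2 had differences of 2.86 ± 0.92 and 2.40 ± 0.54. IAA4 and IAA1 had differences of -4.30 ± 0.56 and -3.82 ± 0.66, with IAA1 raised in brm-3 and lowered in brm-1. IAA7 had a difference of -2.02 ± 0.28. The call of GH3.3 was lost under 6 of 24 alternatives and that of IAA6 under 13 of 23.

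**Figure D4:**
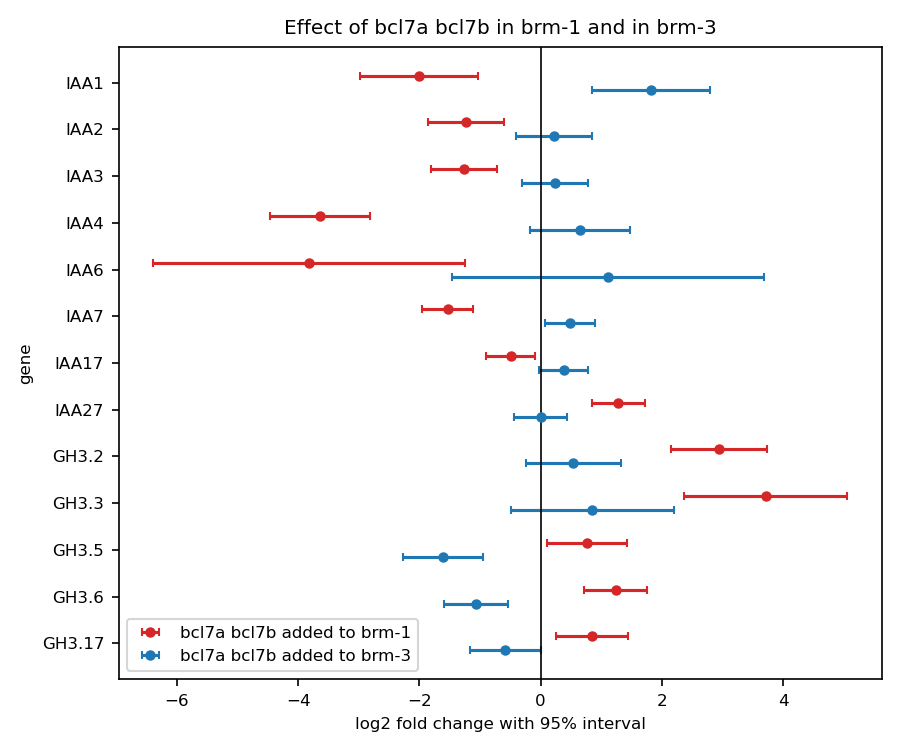
Log2 fold change with its 95% interval when bcl7a bcl7b is added to brm-1 (red) or to brm-3 (blue), for the 13 members whose 2 effects differed past the thresholds. GH3.2 and GH3.3 lie far to the right with brm-1 and IAA4 far to the left. GH3.5, GH3.6, IAA1, IAA4 and IAA7 are among the genes whose effects have opposite signs.

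The effect of bcl7a bcl7b also differed between brm-1 and WT, in 6 members upward and 4 downward (of all genes, 14.7% were higher and 16.5% lower, 31.2% in all, a contrast likewise added after the values had been seen). The 5 GH3 genes that were low in single brm mutants were all among the 6, with GH3.3 at 7.98 ± 0.98 and GH3.5 at 4.45 ± 0.48 (log2, SE). IAA28 was among the 4, at -2.04 ± 0.34, with a 4.23-fold rise in bcl7a bcl7b against WT and a log2 value of 0.04 in bcl7a bcl7b brm-1 against brm-1. This contrast spans both sets of library sums. With the same-total rescaling 5 members were higher and 10 lower, and without the 100 highest genes 5 and 7. Of all genes called, 12.09% and 30.34% were higher under these 2 rescalings. The calls of IAA12 and IAA27 were lost under 12 and 10 of 24 alternatives, and those of the 5 GH3 genes under none.

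The 2 triple mutants differed in many members. In bcl7a bcl7b brm-1 against bcl7a bcl7b brm-3, 7 members were higher and 10 lower (of all genes, 16.3% were higher and 13.5% lower, 29.8% in all), with 5 GH3 genes among the higher and none among the lower. GH3.3 was 12.8-fold higher and IAA4 9.62-fold lower. By contrast brm-1 and brm-3 themselves differed in 4 members, 2 higher and 2 lower in brm-1 (of all genes, 5.34% were higher and 4.6% lower, 9.94% in all). These were IAA1 (3.25-fold higher), IAA26 (1.72-fold higher), IAA12 (1.64-fold lower) and IAA29 (4.11-fold lower). Of the GH3 genes 0 were called, with 3 at an unadjusted p under 0.05 (limma), and without brm-1 replicate 1 the count of members was 0. Under both rescalings 1 was higher and 2 lower. The count moved by more than 1.5 times in 4 of the 6 fits that left out a library.

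Each triple mutant was also compared with the double mutant it contains. In bcl7a bcl7b brm-3 against bcl7a bcl7b, 8 members were higher and 6 lower (of all genes, 13.8% were higher and 15.1% lower, 28.9% in all), with IAA28 3.85-fold and IAA1 4.82-fold higher and GH3.6 3.95-fold lower. In bcl7a bcl7b brm-1 against bcl7a bcl7b, 9 were higher and 6 lower (of all genes, 12.8% were higher and 10.9% lower, 23.7% in all), with GH3.3 17.9-fold and IAA28 3.09-fold higher and IAA29 7.12-fold lower. Without bcl7a bcl7b replicate 2 the latter count was 8 in all.

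**Figure D5:**
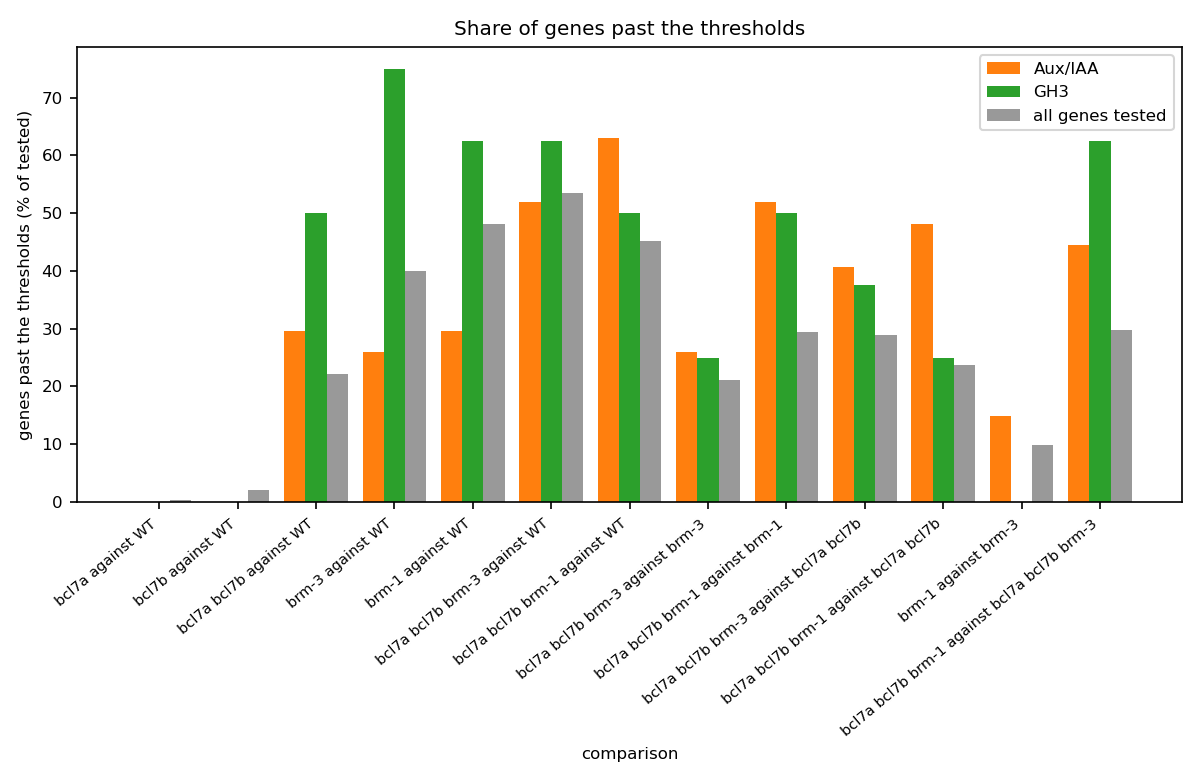
Share of tested genes past the thresholds in 13 comparisons, for the 27 Aux/IAA genes (orange), the 8 GH3 genes (green) and all 21596 genes (grey). In bcl7a and bcl7b against WT both families are at 0, and in brm-3 and brm-1 against WT the Aux/IAA bars lie below the grey bars and the GH3 bars above them.

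Other genes of the pathway were counted from lists of receptors, ARFs, synthesis, turnover and further auxin-induced genes. Beside these counts stand the shares of all genes called in either direction, 22.1% in bcl7a bcl7b, 40% in brm-3, 48.1% in brm-1 and 45.2% in bcl7a bcl7b brm-1. Of the 6 TIR1/AFB auxin receptors, 1 was lower in bcl7a bcl7b (16.7%), 4 in brm-3 (66.7%), and 5 were lower and 1 higher in brm-1 (100%). TIR1 was at 5692, 6874 and 7514 in WT, 4253, 3435 and 4279 in bcl7a bcl7b, 2974, 3471 and 4176 in brm-3, 1294, 1312 and 1439 in brm-1, 788, 1271 and 891 in bcl7a bcl7b brm-3 and 1715, 2416 and 2224 in bcl7a bcl7b brm-1. In brm-1 TIR1 fell 4.93-fold (log2 -2.30 ± 0.18 SE), AFB1 3.04-fold, AFB5 2.23-fold and AFB3 2.07-fold. Among 15 tested of 23 ARF genes, 3 were higher and 4 lower in brm-1 (46.7%, near the share of all genes), with ARF4 6.58-fold higher and ARF18, ARF2 and ARF3 3.15-fold, 2.71-fold and 2.55-fold lower.

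Of 14 auxin synthesis genes, 10 were tested, and 3 were higher and 1 lower in brm-1 (40%, under the share of all genes). YUC8, a flavin monooxygenase of the last step of auxin synthesis, was at 205, 426 and 437 in WT and 28.2, 48.8 and 38.5 in brm-1, and at 0, 48.6 and 0 in bcl7a bcl7b. TAA1, the aminotransferase of the step before, was at 87.4, 93.99 and 168 in WT, 239.8, 315 and 261 in brm-1 and 517, 564 and 543 in bcl7a bcl7b brm-1. TAR2, a relative of TAA1, rose 2.65-fold in brm-1, and YUC1 was at 0 in all WT libraries and at 12.6, 3.44 and 13.8 in brm-1. Of 9 genes of auxin oxidation and conjugate hydrolysis, 8 were tested, with 2 higher and 2 lower in brm-1 (50%, near the share of all genes). The oxidase gene DAO1 and the hydrolase family gene ILL3 rose 3.42-fold and 3.15-fold there, and ILL6 and ILR1 of the same hydrolase family fell 3.96-fold and 2.23-fold. Of 6 other auxin-induced genes, 0 were higher and 2 lower in brm-1 (33.3%), ARGOS (3.55-fold) and HAT2 (3.26-fold). The SAUR family, the third class of early auxin genes, had 70 of 79 members tested, with 3 higher and 18 lower in bcl7a bcl7b (30%), 18 and 16 in brm-1 (48.6%, near the share of all genes), and 8 and 35 in bcl7a bcl7b brm-1 (61.4%). In brm-1 SAUR5 rose 89.4-fold (log2 6.48 ± 0.67 SE) and SAUR61 fell 30-fold (log2 -4.91 ± 0.88 SE).

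Other lists were measured in the same libraries. Of 9 clock genes, 3 were higher and 5 lower in brm-1 (88.9%, beside 48.1% of all genes), with PRR9 at 341, 282 and 219 in WT, 3.88, 11.1 and 3.999 in bcl7a bcl7b and 6.45, 0 and 7.74 in brm-1. The values of 7 root markers summed to 969 to 1254 in WT and to 202 to 574 in the libraries of the 5 genotypes with lower sums. In brm-1, 1 root marker was called higher, 1 lower and 5 neither. In that mutant the values of 5 leaf markers summed to 170400 to 237800, against 414200 to 508900 in WT, with 1 marker called higher, 2 lower and 2 neither. The sum of 3 flower markers was 55.6 to 227 in WT, 424 to 933 in brm-1 and 532 to 974 in bcl7a bcl7b brm-3. The sum of 3 seed markers was 471 to 11360 in bcl7a bcl7b brm-1 and at most 170 in every other genotype. The part of these lists in the values of the Aux/IAA and GH3 genes was not tested. In these bulk samples, fewer cells of a type and less RNA per cell cannot be told apart.

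Some members are neighbours in the genome. IAA3 and IAA17 lie 6388 bases apart on chromosome 1, IAA14 and IAA1 10732 bases apart on chromosome 4, and IAA2 and IAA7 12510 bases apart on chromosome 3, each pair on opposite strands. The neighbours did not share calls throughout. In bcl7a bcl7b brm-3, IAA1 rose 2.17-fold while IAA14 fell 4.71-fold, and in bcl7a bcl7b IAA17 rose while IAA3 gave log2 -0.75 without a call. Both IAA2 and IAA7 fell in bcl7a bcl7b brm-1, 3.39-fold and 4.19-fold. In the annotation, 11 members overlap another gene. IAA3, IAA10, IAA13, IAA32, GH3.9 and GH3.10 share between 432 and 1176 bases with a gene on the opposite strand, and IAA5, IAA9, IAA11, IAA27 and IAA34 share between 12 and 156 bases with a neighbour. Without the use of strand, reads from such stretches cannot be told apart.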

How the data were processed

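Whole-seedling RNA-seq libraries were grouped by genotype from the sample titles. The authors quantified paired-end reads with Salmon (version 1.5.1 in the submitters' processing notes) against the AtRTD2 transcriptome. The authors then gave the gene values (TPM, according to the methods) to DESeq2, whose ratio method set a size factor for each library. The deposited values are that normalized signal, per gene and library, and were not treated as reads. Sums of these values do not measure depth, since each library was scaled by its size factor. No interval for counting error was computed.

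After adding 1, log2 values of 21596 genes (10 or more in 3 or more libraries) were fitted with limma 3.58.1 (lmFit, eBayes with trend) under R 4.3.3 (tables read by data.table, version 1.17.8). A single model held all 8 genotypes, with 23 samples and no covariate, and p was Benjamini-Hochberg adjusted over all genes tested. Fold changes are on this scale, which understates the change of low genes. The thresholds (adjusted p below 0.05, log2 fold change beyond 0.6) are those of the methods. The model was tested on simulated data.

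The members, gene lists and tests were chosen with earlier results of these data known. All members could be named, with each library given for GH3 genes (GH3.1 as a range in the mutants) and for members changed in bcl7a bcl7b or brm-1. At most 4 genes of each other list and 2 SAUR genes were named, by size of change in brm-1. Alternatives covered the pseudocount (0.1, 5), the filter (none, or a mean of 50), quantile normalization, 2 rescalings, all 24 libraries as deposited, a replicate block, a model of only the compared groups, other thresholds and single libraries left out. Promoter windows were read from RefSeq TAIR10.1.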

Additional observations from a re-analysis of the deposited data

Results flagged for a closer look

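In each result here, 2 effects of the same mutations differed by a test of the difference itself (limma, past the thresholds), and values are differences on the log2 scale. The effect of losing both BCL7 genes differed from the sum of the single mutants by -5.47 for GH3.3, -3.49 for GH3.5, -2.51 for GH3.10, -2.02 for GH3.2, -1.54 for GH3.6 and 1.20 for IAA17. With libraries rescaled to the same total, GH3.2, GH3.6 and GH3.10 lost their calls, and GH3.2 lost its call under 10 of 24 alternatives. GH3.2 lay above WT in every library of both single mutants and had no call in the double mutant against WT. GH3.3 lay above WT in every bcl7b library.

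The effect of bcl7a bcl7b in brm-1 minus that in brm-3 was 2.86 for GH3.3, 2.40 for GH3.2, 2.37 for GH3.5, 2.30 for GH3.6, 1.43 for GH3.17 and 1.28 for IAA27. It was -4.93 for IAA6, a gene at 0 in bcl7a bcl7b brm-1, -4.30 for IAA4, -3.82 for IAA1, -2.02 for IAA7, -1.50 for IAA3, -1.45 for IAA2 and -0.87 for IAA17. Calls were lost under 13 of 23 alternatives for IAA6, 6 of 24 for GH3.3 and 5 of 24 for IAA17.

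The effect of bcl7a bcl7b in brm-1 minus that in WT was 7.98 for GH3.3, 4.45 for GH3.5, 3.22 for GH3.2, 2.96 for GH3.6, 2.75 for GH3.10 and 0.90 for IAA27. It was -4.22 for IAA4, -2.04 for IAA28, -1.15 for IAA17 and -0.81 for IAA12. The calls of IAA12 and IAA27 were lost under 12 and 10 of 24 alternatives, for IAA27 under both rescalings (values over the alternatives from 0.021 to 1.06). Seed markers summed to 11360, 765.5 and 471 in replicates 1, 2 and 3 of bcl7a bcl7b brm-1, which enter both of these differences. Their sum was at most 170 in every other genotype. GH3.3 was at 594, 515 and 463 in the same replicates, beside 465 to 689 in WT. The part of seed markers in these differences was not tested.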

How the results depend on the processing

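Counts of changed members moved by more than 1.5 times under 3 settings. Rescaling to the same total gave 1 in bcl7b, 19 in bcl7a bcl7b and 21 in brm-1, each against WT. A model of the compared groups alone gave 4 in bcl7a bcl7b against WT. With an adjusted p under 0.01 and a log2 fold change above 1, the count was 4 in bcl7a bcl7b brm-3 against brm-3, 10 in bcl7a bcl7b brm-1 against brm-1, 0 in brm-1 against brm-3, 2 for the departure from additivity and 8 for the difference between the effects in brm-1 and brm-3. Signs turned with the same total for IAA7 (0.16) and IAA13 (0.32) in bcl7a bcl7b, and for IAA13 (0.26) and IAA16 (0.099) in bcl7a bcl7b brm-3; the cause was not tested beyond the shift of all genes given above. Leaving out each library in turn gave 0 to 4 in brm-1 against brm-3 and 8 to 15 in bcl7a bcl7b brm-1 against bcl7a bcl7b. The ranges were 9 to 12 in bcl7a bcl7b, 13 to 14 in brm-3, 14 to 16 in brm-1, 17 to 20 in bcl7a bcl7b brm-3 and 19 to 21 in bcl7a bcl7b brm-1, each against WT. Replicate numbers did not pair the samples (in 13 comparisons the correlations of same-numbered libraries lay between -0.069 and 0.055), and with a replicate block the count was 12 in bcl7a bcl7b, 15 in brm-1 and 18 in bcl7a bcl7b brm-1 against brm-1. Genes near the filter had libraries at 0 and above 10 in 1 genotype, which limits what a low gene can show.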
